A study of Mus musculus with 30 samples.

Results

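The 7 genes described here encode Toll-like receptors that lie on mouse autosomes: Tlr1, Tlr2, Tlr3, Tlr4, Tlr5, Tlr6 and Tlr9. They were taken by symbol from a table of 23060 gene symbols, by a rule that uses no measured value. Toll-like receptors are membrane proteins of innate immune cells that bind conserved microbial molecules and signal through TIR-domain adaptors, above all Myd88, to NF-kappa B and interferon regulatory factors. Tlr1, Tlr2, Tlr4, Tlr5 and Tlr6 act at the cell surface. Tlr3 and Tlr9 bind nucleic acids in endosomes and depend on the chaperone Unc93b1 and on lysosomal proteases.

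The series concerns the conversion of adult mouse endothelium to haematopoietic stem cells, and its libraries are non-stranded poly-A RNA-seq of cells purified by FACS. Wild-type control libraries came from LKS-SLAM cells of bone marrow (a gate for haematopoietic stem cells, 3 libraries) and from blood Gr1+Cd11b+ myeloid cells (2), B220+ B cells (3), Cd3+Cd4+ T cells (2) and Cd3+Cd8+ T cells (3). The same 5 gates were sequenced from cells whose genotype is given as derived and whose titles carry the prefix rEC, meaning that they stem from reprogrammed endothelial cells, with 3, 2, 3, 2 and 3 libraries. A further 3 libraries hold adherent KLS cells of a day 28 culture with the reprogramming factors FGRS (Fosb, Gfi1, Runx1 and Spi1) on HUVEC, human umbilical vein endothelial cells that serve as feeders. Within the rEC groups, the titles of LKS-SLAM library 2 and B library 2 give clone 47G1 from primary hosts, and those of LKS-SLAM 3, B 3, CD4 T 2 and CD8 T 2 and 3 say secondary. LKS-SLAM control 3 and rEC 1 are annotated as long-term stem cells, unlike the other LKS-SLAM libraries. The labels do not say which libraries came from separate animals, so the spread between libraries may be technical in part.

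Values are FPKM, fragment counts scaled by transcript length and by mapped fragments, as deposited. Being per length, they allow levels of different genes to be compared. The 29 grouped libraries listed between 10165 and 12550 genes at 1 FPKM or more. Low values set the relative depth of the libraries between 0.586 and 1.13 times that of B control 2. Read totals are not given, so no counting interval can be attached to a level. In bulk samples, fewer cells of a type and less RNA per cell cannot be told apart.

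The defining markers fitted most labels. The 6 genes of the B-cell list summed to 5866 to 6594 FPKM in the B controls, and Cd8a read 363 to 395 FPKM in the CD8 T controls. S100a8, a neutrophil protein, read 13110 and 14710 FPKM in the myeloid controls. Some libraries stood apart. B rEC 1 held Cd3e, a T-cell receptor subunit, at 198 FPKM, and LKS-SLAM rEC 2 held the stem-cell marker Procr at 7.52 FPKM, against 72.4 to 77.8 FPKM in the LKS-SLAM controls. In LKS-SLAM rEC 2 the erythroid factor Klf1 read 201 FPKM, while its erythroid list, at 384 FPKM, lay within the controls' 142 to 793 FPKM. Its macrophage list summed to 300.2 FPKM, against 21.8 to 28.4 FPKM in the other LKS-SLAM libraries. The eosinophil list summed to 2261 and 4176 FPKM in LKS-SLAM controls 1 and 2 and to 34.1 FPKM in control 3. The LKS-SLAM controls also carried neutrophil markers, with all 8 listed genes at 1 FPKM or more and a summed level of 1251 to 1679 FPKM. The part of these other cells in the receptor levels was not tested.

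The 7 genes lie at 6 places in the genome. In GENCODE vM21 on GRCm38, Tlr1 spans chr5:64924679-64933563 and Tlr6 chr5:64952031-64960097. Both are on the minus strand with 18467 bases between them. Tlr2 spans chr3:83836272-83841767 and Tlr3 chr8:45395665-45411080, both on the minus strand. Tlr4 spans chr4:66827584-66930284, Tlr5 chr1:182954788-182976044 and Tlr9 chr9:106222598-106226883, all on the plus strand. Tlr1 and Tlr6 are close paralogues, and how reads shared between them were assigned is uncertain.

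Sequences before a start site are printed below for Tlr1 and Tlr6, neighbours with different cell-type orders, and for Tlr2 and Tlr9, the receptors with the highest levels in the FGRS culture and among the endosomal receptors. They come from the RefSeq table on GRCm38.p6, run 5′ to 3′ on the strand of the gene, and stop where the first GENCODE exon begins, which for Tlr2 lies well before the RefSeq start. The Tlr1 stretch is chr5:64933564-64933808, the Tlr6 stretch chr5:64959167-64959416 (inside the longer annotated Tlr6 gene, before a second start), the Tlr2 stretch chr3:83841768-83841858 and the Tlr9 stretch chr9:106222348-106222597. Capitals mark matches, on either strand, to GAGGAA (an ETS core, the site type of Spi1), ATGCAAAT (the octamer bound by Oct factors), a kappa B palindrome (GGGAA followed by TTCCC) or an interferon-response repeat (GAAA, any 2 bases, then GAAA).
Tlr1: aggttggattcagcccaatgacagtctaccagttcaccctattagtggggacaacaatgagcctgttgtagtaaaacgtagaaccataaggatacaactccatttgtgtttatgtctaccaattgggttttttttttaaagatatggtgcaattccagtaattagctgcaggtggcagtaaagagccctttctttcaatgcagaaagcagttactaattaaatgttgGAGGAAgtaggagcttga
Tlr6: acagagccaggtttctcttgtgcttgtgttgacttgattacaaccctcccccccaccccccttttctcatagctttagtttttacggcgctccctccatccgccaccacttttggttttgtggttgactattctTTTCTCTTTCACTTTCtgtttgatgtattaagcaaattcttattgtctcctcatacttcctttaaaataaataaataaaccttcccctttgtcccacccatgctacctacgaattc
Tlr2: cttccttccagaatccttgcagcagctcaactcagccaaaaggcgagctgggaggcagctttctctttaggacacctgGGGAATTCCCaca
Tlr9: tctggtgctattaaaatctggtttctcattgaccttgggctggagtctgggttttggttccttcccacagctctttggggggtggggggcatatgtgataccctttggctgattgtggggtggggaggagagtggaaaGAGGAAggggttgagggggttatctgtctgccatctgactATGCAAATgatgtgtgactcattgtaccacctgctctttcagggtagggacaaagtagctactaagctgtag
Counted from the RefSeq start, the ETS core began 23 bases before the Tlr1 start and 112 before the Tlr9 start, and the octamer 72 bases before the Tlr9 start. The kappa B palindrome began 172 bases before the Tlr2 start. The repeat occurred 2 times, overlapping, on the opposite strand 116 and 110 bases before the second Tlr6 start. The stretch at the outer RefSeq start of Tlr6, chr5:64960098-64960298, held no match to the 4 motifs and is not printed. The 250 bases before the Tlr5 start, chr1:182954538-182954787, also held no match and are not printed. Over 32851 windows of 250 bases, GAGGAA was present in 23.3%, ATGCAAAT in 1.6%, the palindrome in 0.0335% and the repeat in 2.98%, on either strand. The 4 motifs were chosen after these sequences had been read. A match is a string of letters and not a shown binding site.

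The wild-type controls address how each receptor is distributed over native blood cells. Myeloid cells held the highest Tlr2, Tlr4, Tlr5 and Tlr6, B cells the highest Tlr1, and B and myeloid cells high Tlr9. T cells held Tlr1 and little else, and LKS-SLAM cells mainly Tlr2 and Tlr4. All 7 receptors differed among the 5 native cell types by limma's F test on log2(FPKM + 1) at an adjusted p under 0.05, where 84.6% of all 14083 genes tested did. The count was 6 with median-of-ratios scaling, with the native libraries alone, with a replicate block or without B control 2. It was also 6 with a filter of 5 FPKM, which Tlr3 does not pass. Over the 10 pairs of cell types, 42 of 70 receptor-by-pair tests passed, against 43.1% of all gene-by-pair tests. All 7 receptors passed the filter of 1 FPKM in at least 2 libraries. Tlr3 did so through a single LKS-SLAM rEC and a single B control library. Tlr5 did so only through myeloid and FGRS culture libraries, the groups where it was high.

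**Figure D1:**
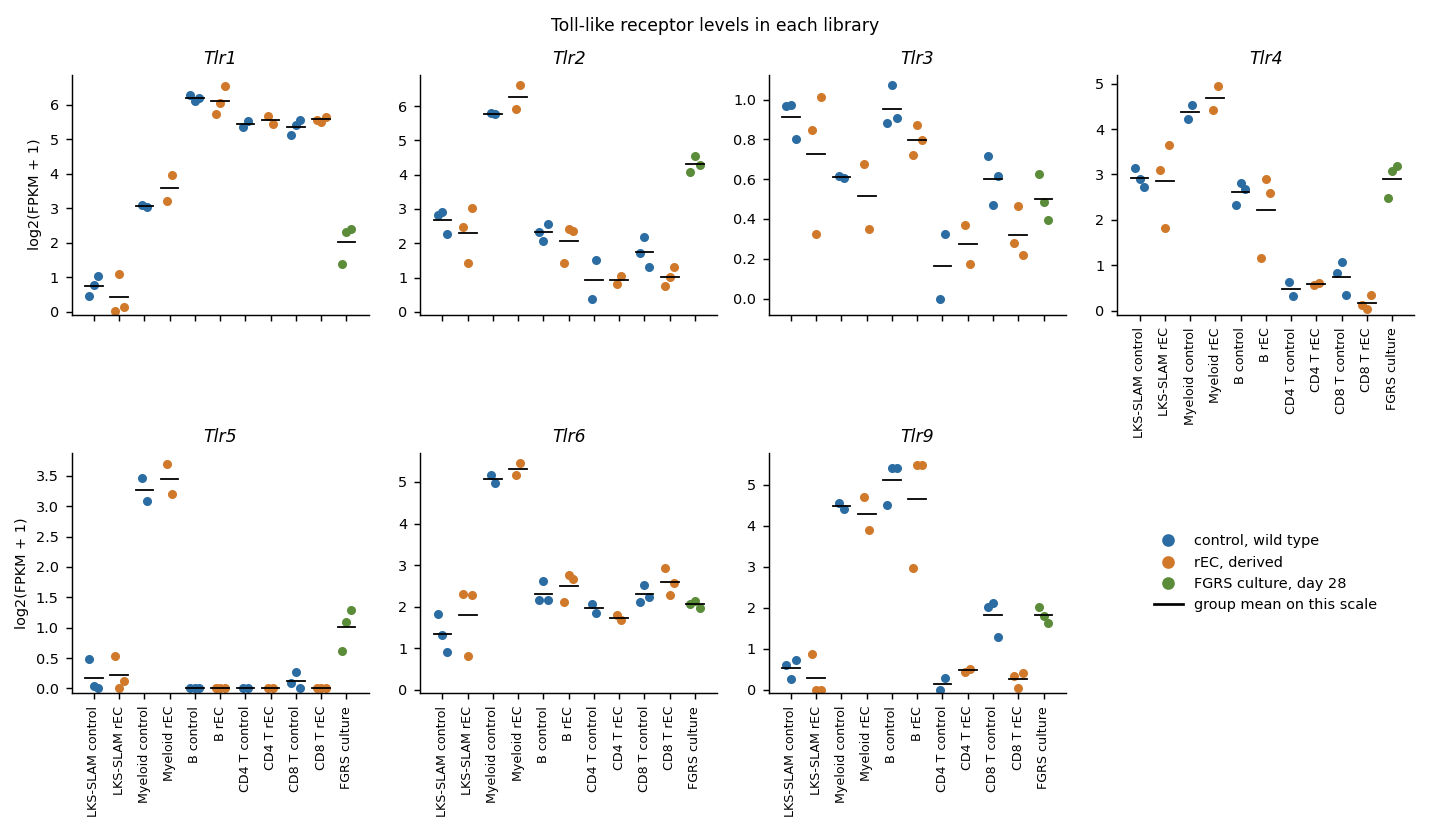
Each dot is a library, with its level on the log2(FPKM + 1) scale on the vertical axis, by group on the horizontal axis. Black bars are group means on that scale. Tlr1 is highest in B cells, Tlr2, Tlr4, Tlr5 and Tlr6 in myeloid cells, and Tlr3 reads at most 1.10 FPKM in every library.

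Tlr2, the partner of both Tlr1 and Tlr6 in binding bacterial lipopeptides, stood at 54.4 and 53.4 FPKM in the myeloid controls. It read 6.09, 6.46 and 3.87 FPKM in the LKS-SLAM controls and 4.03, 3.21 and 4.95 FPKM in the B controls. The CD8 T controls read 2.29, 3.53 and 1.48 FPKM and the CD4 T controls 0.285 and 1.84 FPKM. The myeloid libraries lay above all others, and LKS-SLAM and B libraries overlapped. Tlr2 was higher in myeloid than in LKS-SLAM cells by 3.11 ± 0.40 (SE) on the log2(FPKM + 1) scale (limma, adjusted p = 8.87e-07), where 6 receptors and 66.5% of genes were called, 17.4% higher and 49.1% lower. It was lower in CD4 T than in LKS-SLAM cells by -1.74 ± 0.40 (adjusted p = 0.00118), a call lost without CD4 T control 1 (-1.16, adjusted p = 0.062). The difference of CD8 T from LKS-SLAM cells, -0.93 (adjusted p = 0.0359), was lost without LKS-SLAM control 1 or 2 or CD8 T control 1 or 3 (-0.92 to -0.72). It was also lost with a pseudocount of 0.1, with no filter and with quantile or median-of-ratios scaling (-1.18 to -0.25).

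Tlr1 followed another order. The B controls read 76.8, 67.7 and 72.9 FPKM, the CD4 T controls 40.3 and 45.4 FPKM, and the CD8 T controls 34.0, 41.4 and 46.3 FPKM. The myeloid controls read 7.61 and 7.20 FPKM and the LKS-SLAM controls 0.375, 0.716 and 1.05 FPKM. Only the CD4 T and CD8 T ranges overlapped. From LKS-SLAM to B cells Tlr1 was higher by 5.44 ± 0.28 (log2 scale, limma, adjusted p = 1.41e-12), where 3 receptors and 55.6% of genes were called, 18.9% higher and 36.7% lower. It exceeded the LKS-SLAM level by 4.69 ± 0.31 in CD4 T cells (50.5% of genes called) and by 4.61 ± 0.28 in CD8 T cells (50.2% of genes called). The difference of CD8 T from B cells, -0.83 ± 0.28 (adjusted p = 0.0336), was lost with a pseudocount of 0.1 (-0.85, adjusted p = 0.288). It was also lost without any of B controls 1, 2 or 3 or CD8 T controls 1 or 2 (-0.88 to -0.71, adjusted p 0.0602 to 0.132). The 24.3% of genes called between B and CD8 T cells included Tlr1, Tlr4 and Tlr9.

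Tlr6, the neighbour and close relative of Tlr1, was highest in myeloid cells. The myeloid controls read 34.9 and 30.3 FPKM. The B controls read 3.45, 5.15 and 3.5 FPKM, the CD8 T controls 3.32, 4.79 and 3.74 FPKM and the CD4 T controls 3.17 and 2.63 FPKM. The LKS-SLAM controls read 2.56, 1.49 and 0.877 FPKM. Myeloid cells stood alone, LKS-SLAM cells lay lowest, and B and CD8 T cells overlapped. Myeloid cells exceeded LKS-SLAM cells by 3.72 ± 0.34 (log2 scale, limma, adjusted p = 7.64e-09). B and CD8 T cells exceeded LKS-SLAM cells by 0.96 and 0.94, calls lost without LKS-SLAM control 3 (0.74 and 0.72), without B control 2 (0.81) and without CD8 T control 2 (0.82). The ratio of Tlr1 to Tlr6 ran from 8.64 to 22.3 in the B and T controls and was 0.218 and 0.238 in the myeloid and 0.147, 0.481 and 1.20 in the LKS-SLAM controls. All B and T libraries lay above all myeloid and LKS-SLAM libraries in this untested ratio, the B and CD4 T ranges overlapped, and the LKS-SLAM values enclosed the myeloid ones.

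Tlr4, the receptor for lipopolysaccharide, read 17.7 and 22.2 FPKM in the myeloid controls. It read 7.78, 6.46 and 5.58 FPKM in the LKS-SLAM controls and 4.01, 6.01 and 5.43 FPKM in the B controls. The CD8 T controls read 0.780, 1.12 and 0.280 FPKM and the CD4 T controls 0.543 and 0.259 FPKM. Myeloid libraries lay highest, LKS-SLAM and B libraries overlapped below them, and all T-cell libraries lay lowest. Myeloid cells exceeded LKS-SLAM cells by 1.46 ± 0.44 (log2 scale, limma, adjusted p = 0.00565), a call lost without myeloid control 2 (1.31, adjusted p = 0.0538). CD4 T and CD8 T cells lay below LKS-SLAM cells by -2.44 ± 0.44 and -2.16 ± 0.39.

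Tlr5, the flagellin receptor, passed 1 FPKM only in the 2 myeloid libraries among the 13 controls. The myeloid controls read 10.03 and 7.45 FPKM, and Tlr5 was listed at 0 in all 3 B and both CD4 T controls. The CD8 T controls read 0.0643, 0.199 and 0 FPKM and the LKS-SLAM controls 0.397, 0.0259 and 0 FPKM. Myeloid cells exceeded LKS-SLAM cells by 3.10 ± 0.21 (log2 scale, limma, adjusted p = 5.38e-11). Tlr5 passed the filter only through myeloid and FGRS culture libraries, so this p-value is not independent of the filter.

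Of the endosomal receptors, Tlr9 binds unmethylated CpG DNA. It read 21.6, 41.1 and 41.5 FPKM in the B controls and 22.4 and 20.3 FPKM in the myeloid controls, and these ranges overlapped. The CD8 T controls read 3.06, 3.35 and 1.45 FPKM. The LKS-SLAM controls read 0.515, 0.202 and 0.665 FPKM and the CD4 T controls 0 and 0.231 FPKM. On the log2 scale, Tlr9 exceeded the LKS-SLAM level by 4.57 ± 0.46 in B cells and by 3.95 ± 0.51 in myeloid cells (limma, adjusted p = 3.37e-08 and 8.60e-07). B and myeloid cells were not called apart (adjusted p = 0.341), in a comparison that called 5 receptors and 53.0% of genes. The difference of CD8 T from LKS-SLAM cells, 1.28 ± 0.46 (adjusted p = 0.0239), was lost without LKS-SLAM control 2, CD8 T control 1 or CD8 T control 2 (1.13 to 1.18).

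The CD8 T controls that held Tlr9 also held B-cell markers. All 6 genes of the B-cell list read 1 FPKM or more in each, with a summed level of 199 to 475 FPKM. In the CD4 T controls 5 of the 6 did, with a summed level of 34.1 and 36.5 FPKM. The part of these markers in the Tlr9 level was not tested. No receptor was called between CD8 T and CD4 T cells by limma, where 2 had an unadjusted p under 0.05 and 3.48% of genes were called.

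Tlr3, which binds double-stranded RNA, was low in all cell types. It read 0.843, 1.10 and 0.876 FPKM in the B controls, 0.954, 0.960 and 0.742 FPKM in the LKS-SLAM controls and 0.531 and 0.522 FPKM in the myeloid controls. The CD8 T controls read 0.642, 0.386 and 0.533 FPKM and the CD4 T controls 0 and 0.252 FPKM. The CD4 T libraries lay below those of the other 4 types. Tlr3 was lower in CD4 T than in B cells by -0.79 ± 0.18 (limma, adjusted p = 0.0025), where 4 receptors and 21.5% of genes were called, and lower than in LKS-SLAM cells by -0.75 ± 0.18. The first call was lost without CD4 T control 1 (-0.63, adjusted p = 0.0764) and the second with quantile normalisation (-0.21, adjusted p = 0.308).

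Most receptors separated most pairs of cell types, as did most genes. Libraries of LKS-SLAM cells did not overlap with those of myeloid cells for 7 receptors (81.1% of genes), of B cells for 3 (65.6%), of CD4 T cells for 5 (71.0%) and of CD8 T cells for 6 (69.2%). Against myeloid cells the number was 6 for B cells (76.2%), 7 for CD4 T cells (82.0%) and 6 for CD8 T cells (82.7%). Between lymphocytes it was 6 for B and CD4 T cells (54.4%), 4 for B and CD8 T cells (55.4%) and 3 for the T-cell gates (51.7%). By limma, 6 receptors were called between myeloid and CD4 T cells (52.9% of genes) and 6 between myeloid and CD8 T cells (53.4%). In both, Tlr1 was the receptor that was higher in T cells, by 2.38 and 2.30, and Tlr2, Tlr4, Tlr5, Tlr6 and Tlr9 were lower.

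The make-up of the receptor set separated the cell types. Tlr1 made up 89.7% and 91.0% of the summed FPKM of the 7 genes in the CD4 T controls and 75.6% to 86.1% in the CD8 T controls. In the B controls Tlr1 took 54.5% to 69.4% and Tlr9 19.5% to 33.1%. In the myeloid controls Tlr2 took 36.9% and 37.8%, Tlr6 23.7% and 21.4% and Tlr9 15.2% and 14.4%. In the LKS-SLAM controls Tlr4 took 39.6% to 43.7% and Tlr2 30.2% to 39.6% of a sum of only 12.8 to 18.7 FPKM, against 141 and 148 FPKM in the myeloid controls.

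**Figure D2:**
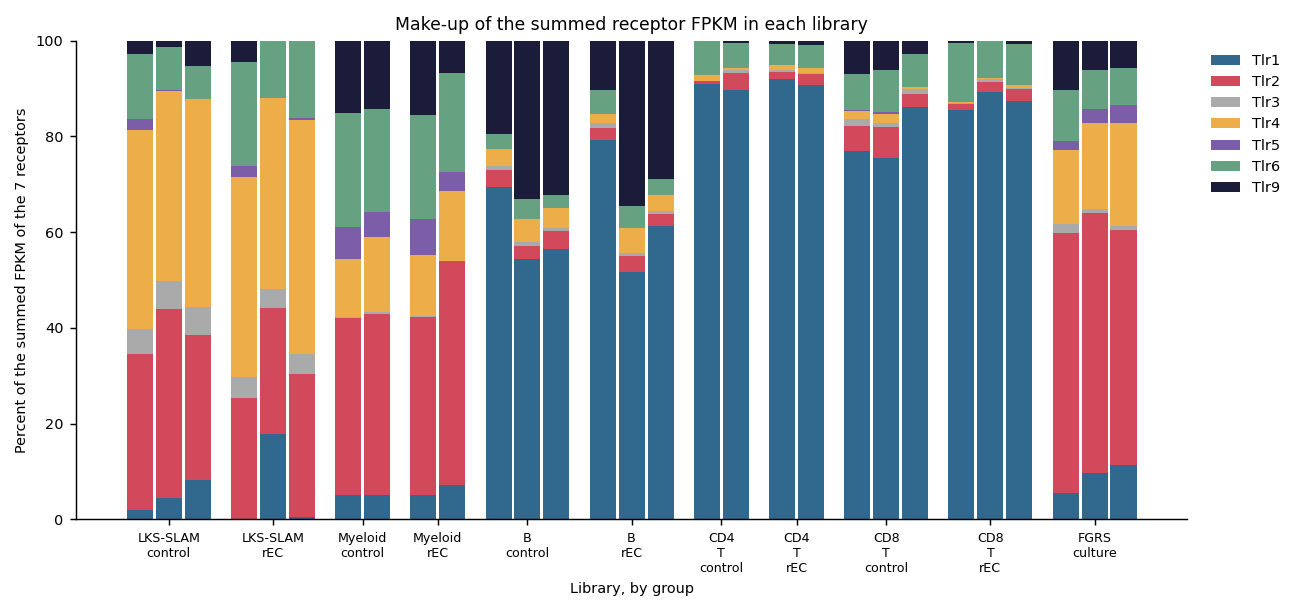
Each stacked bar is a library and shows what percent of the summed FPKM of the 7 receptors each gene made up. T-cell bars are mostly Tlr1, B-cell bars Tlr1 and Tlr9, and myeloid bars are spread over Tlr2, Tlr6, Tlr9 and Tlr4.

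Other genes of the pathway were counted from lists of 79 genes, of which 76 were tested. Between myeloid and LKS-SLAM cells 34 were higher and 16 lower in myeloid cells, or 65.8% called against 66.5% of all genes. Of the 9 co-receptor and ligand-binding genes, 8 were higher and 1 lower, with a median log2 difference of 2.86 where the median of all genes was -0.605. Clec7a, the beta-glucan receptor, rose by 6.33 ± 0.54 and Cd14, which hands lipopolysaccharide to Tlr4, by 3.49 ± 0.48 (limma, adjusted p = 2.44e-09 and 1.86e-06). Of 6 adaptors 4 were higher, with Myd88 at 199 ± 4.17 FPKM in myeloid and 26.5 ± 6.64 FPKM in LKS-SLAM controls (SD, n = 2 and 3). Of the 5 other family members 4 were higher in myeloid cells, Tlr7, Tlr8, Tlr11 and Tlr13, the last by 5.83 ± 0.37, and 1, Tlr12, was lower. Unc93b1, which carries Tlr3 and Tlr9 to endosomes, rose by 2.84 ± 0.48. Of the 10 inhibitors none was higher and 2 were lower, Sigirr by -3.74 ± 0.38 and Tnfaip3 by -1.33 ± 0.44. Of 10 tested cytokine genes, 5 were lower and Il1b alone was higher, by 8.78 ± 0.40.

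Between B and LKS-SLAM cells 22 pathway genes were higher and 26 lower in B cells, or 63.2% called against 55.6% of all genes. Of 9 co-receptor and ligand-binding genes 2 were higher and 4 lower, with a median of -0.48 where that of all genes was -0.253. Lbp, the lipopolysaccharide-binding protein, and Clec7a were lower by -4.64 ± 0.54 and -2.77 ± 0.48. Ly86 and Cd180, which encode the B-cell lipopolysaccharide co-receptors MD-1 and RP105, rose by 4.57 ± 0.53 and 3.26 ± 0.50 on the log2 scale. Unc93b1 rose by 3.05 ± 0.43 and Irf5, a transcription factor used by Tlr9, by 3.11 ± 0.48 (limma, adjusted p = 4.19e-06 and 1.17e-05). Of 10 tested cytokine genes 8 were lower, among them Ccl3 and Ccl4 by -6.77 ± 0.72 and -6.36 ± 0.93.

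The series title implies a comparison of rEC cells with controls of the same gate. No receptor was called by origin in any of the 5 cell types. By limma, 0 of 35 receptor-by-cell-type tests had an adjusted p under 0.05, and 1, Tlr9 in CD8 T cells, had an unadjusted p under 0.05. The background was low too: 1.32% of genes were called in LKS-SLAM, 0.227% in myeloid, 0.00% in B, 0.0213% in CD4 T and 1.13% in CD8 T cells. Averaged over the 5 cell types, 0 of 7 receptors were called (0 with an unadjusted p under 0.05) beside 0.895% of genes. The test of whether the origin difference varied among cell types called 0 of 7 (0 unadjusted) beside 0.277% of genes.

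**Figure D3:**
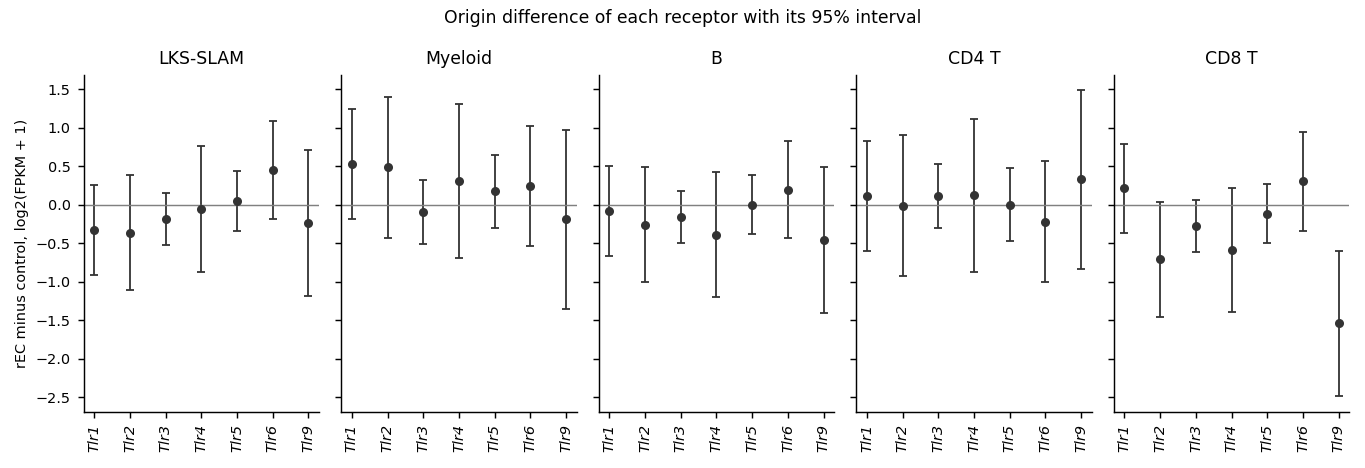
Dots are the rEC minus control difference of each receptor on the log2(FPKM + 1) scale and bars its 95% interval, in a panel per cell type. All intervals but that of Tlr9 in CD8 T cells (-2.49 to -0.60) include 0.

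In CD8 T cells the rEC libraries held Tlr9 at 0.270, 0.0280 and 0.341 FPKM, all below the controls at 3.06, 3.35 and 1.45 FPKM. The difference was -1.54 ± 0.46 (limma, adjusted p = 0.138), with an interval of -2.49 to -0.60. It passed the threshold with a pseudocount of 0.1 (-3.22), array weights (-1.59), the CD8 T libraries alone and without LKS-SLAM rEC 2 and B rEC 1, both at -1.54 (adjusted p 4.97e-05 to 0.0242). With any single CD8 T library left out it was -1.80 to -1.39 and uncalled. Tlr2 read 0.689, 1.02 and 1.48 FPKM in these rEC libraries, and overlapped the controls. Its difference was -0.71 ± 0.36 (adjusted p = 0.721), with an interval of -1.46 to 0.04.

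Tlr4 read 0.0865, 0.0252 and 0.273 FPKM in the CD8 T rEC libraries, below all 3 controls, with a difference of -0.59 ± 0.39 (limma, adjusted p = 0.952). Tlr3, Tlr4 and Tlr9 were the receptors whose CD8 T groups did not overlap, as did 30.5% of genes. Tlr1 read 46.4, 44.6 and 49.4 FPKM and Tlr6 6.65, 3.89 and 4.92 FPKM in the rEC libraries, both overlapping their controls. Markers of other cells moved with this comparison. The B-cell list summed to 199 to 475 FPKM in the controls, with 6 of 6 genes at 1 FPKM or more, and to 6.80 to 62.4 FPKM in the rEC libraries, with 1 to 5 of 6. Csf1r, the receptor that marks monocytes and macrophages, read 9.57, 29.1 and 7.54 FPKM in the controls and 0.790, 0.0125 and 0.0433 FPKM in the rEC libraries. The monocyte list to which it belongs overlapped, at 543 to 794 FPKM in the controls and 323.5 to 707 FPKM in the rEC libraries, and the macrophage list summed to 11.4 to 32.4 and 6.54 to 7.15 FPKM. The neutrophil list summed to 15.6 to 33.8 FPKM in the controls and 6.18 to 9.89 FPKM in the rEC libraries. No listed B-cell gene was at 0 in any CD8 T library. The part of these cells in the difference was not tested.

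**Figure D4:**
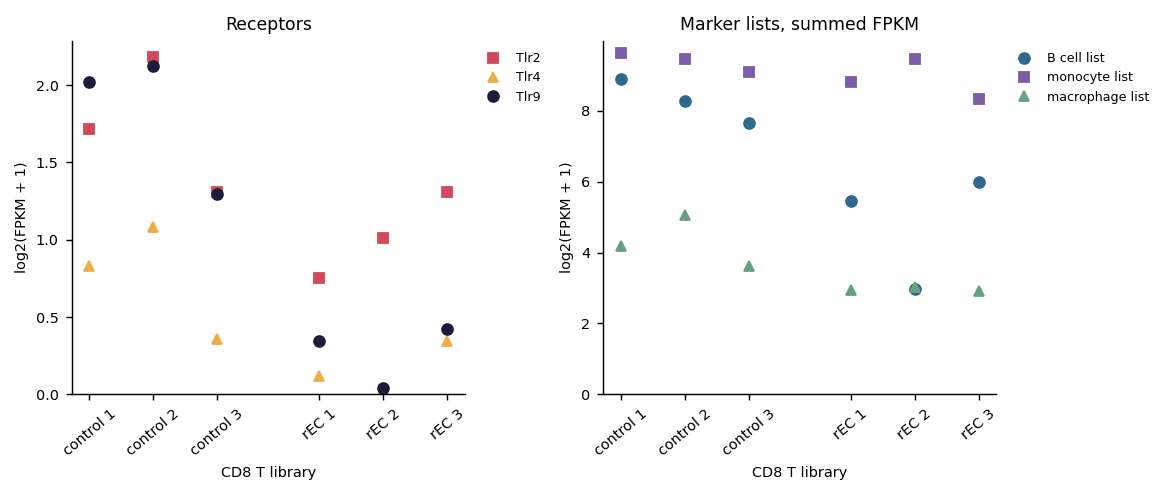
Levels on the log2(FPKM + 1) scale are shown for the 6 CD8 T libraries, with Tlr2, Tlr4 and Tlr9 on the left and summed marker lists on the right. The Tlr4 point of rEC 2 lies behind that of Tlr9. Tlr9 and the B-cell list are both higher in each control library than in each rEC library.

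Of the pathway genes, 9 of 76 were lower in rEC CD8 T cells and 0 higher, or 11.8% called, where 0.987% of all genes were lower and 0.142% higher. Irf5 stood at 1.94 ± 1.47 FPKM in rEC and 17.0 ± 8.56 FPKM in control libraries (SD, n = 3 each), and Unc93b1 at 11.6 ± 5.12 and 41.3 ± 15.3 FPKM. Itgam, an integrin of myeloid cells, fell by 2.70 ± 0.45 and Ly86 by 3.07 ± 0.53 (log2 scale, limma, adjusted p = 0.00265 and 0.00303). Fos and Jun, the AP-1 factors, fell by 5.02 ± 1.03 and 4.56 ± 0.80. The count was 5 without CD8 T control 1, 4 without CD8 T control 2 and 4 without CD8 T rEC 2. The B-cell, macrophage and neutrophil lists were also higher in the CD8 T controls, while the monocyte list overlapped. Their part in these pathway differences was not tested.

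In LKS-SLAM cells the rEC libraries varied more than the controls. Tlr4 read 7.60, 2.54 and 11.6 FPKM and Tlr2 4.6, 1.66 and 7.08 FPKM, with the lowest of each in rEC 2, the library with high Klf1. Both ranges enclosed those of the controls. The neutrophil list summed to 419, 18.7 and 33.3 FPKM in the same libraries. Tlr6 read 3.92, 0.758 and 3.85 FPKM, a difference of 0.45 ± 0.31 (limma, adjusted p = 0.740). Without rEC 2 it was 0.94 (adjusted p = 0.0179), with rEC 1 and 3 above all 3 controls. Tlr1 read 0.0192, 1.14 and 0.106 FPKM, a difference of -0.34 ± 0.28 (adjusted p = 0.796), which turned to 0.07 with quantile normalisation. No receptor's LKS-SLAM groups were without overlap, where 6.44% of genes were. Of the pathway genes 5 of 76 were lower and 0 higher, where 1.25% of all genes were lower and 0.0710% higher, among them Tnfaip3 by -1.93 ± 0.39 and the chemokine Ccl3 by -3.58 ± 0.72. The count was 2 without LKS-SLAM control 1, 3 without control 2, and 8 without rEC 1 or without rEC 2. Some markers of other cells moved with these genes. The neutrophil list summed to 1251 to 1679 FPKM in the controls, with 8 of 8 genes at 1 FPKM or more, and to 18.7 to 419 FPKM in the rEC libraries, with 4 to 8 of 8 and with Ltf and Camp at 0 in rEC 2. The eosinophil list summed to 34.1 to 4176 FPKM in the controls and 0.980 to 353 FPKM in the rEC libraries, and the monocyte list to 1232 to 1514 and 36.7 to 1396 FPKM. Both overlapped between the groups, as did the mast cell and basophil list, at 9.01 to 331 and 0.889 to 18.5 FPKM. The macrophage list went the other way in rEC 2, at 300.2 FPKM against 23.5 to 25.0 FPKM in the controls. Their part in these differences was not tested.

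In B cells, Tlr9 read 6.77, 43.7 and 43.8 FPKM in the rEC libraries, and the low value was that of rEC 1, which held T-cell RNA. Tlr4 read 1.23, 6.51 and 5.0 FPKM with the same library lowest. Tlr1 read 52.3, 65.2 and 93.1 FPKM and spanned the control range. Tlr3 alone did not overlap, at 0.650, 0.828 and 0.736 FPKM, as did 6.94% of genes. In rEC 1 the B-cell list summed to 1725 FPKM and the T-cell list to 1788 FPKM, against 5823 and 13.2 FPKM in rEC 2.

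In myeloid cells, the rEC libraries read 59.4 and 96.5 FPKM for Tlr2 and 8.21 and 14.8 FPKM for Tlr1, both above their controls, where 44.2% of genes did not overlap. Tlr4 read 20.3 and 30.0 FPKM, Tlr5 11.9 and 8.22 FPKM, Tlr6 34.7 and 42.9 FPKM and Tlr9 25.0 and 13.8 FPKM, each overlapping the controls. In CD4 T cells, Tlr1 read 50.3 and 42.7 FPKM and overlapped the controls. Tlr6, at 2.47 and 2.19 FPKM, lay below and Tlr9, at 0.352 and 0.436 FPKM, above both controls, where 37.3% of genes did not overlap. By limma 0 of 76 pathway genes were called by origin in myeloid, B or CD4 T cells (3, 0 and 1 with an unadjusted p under 0.05).

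The FGRS culture was set against LKS-SLAM cells and against native myeloid cells. Its titles say KLS without SLAM, so by label its gate differs from that of the LKS-SLAM cells. These comparisons share libraries, so their values stand side by side. Tlr2 read 16.0, 22.3 and 18.4 FPKM in the culture, above every LKS-SLAM library and below every myeloid library. Tlr2 was higher than in LKS-SLAM controls by 1.63 ± 0.36 (limma, adjusted p = 0.000929) and than in LKS-SLAM rEC cells by 2.0 ± 0.36. It was lower than in myeloid controls by -1.48 ± 0.40. Tlr2 made up 49.0% to 54.4% of the summed receptor FPKM in the culture.

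Tlr1 read 1.61, 4.01 and 4.28 FPKM, again between the LKS-SLAM and myeloid controls without overlap. It was higher than in LKS-SLAM controls by 1.28 ± 0.28 and than in LKS-SLAM rEC cells by 1.61 ± 0.28, and lower than in myeloid controls by -1.03 ± 0.31. The last call was lost without culture library 1 (-0.71, adjusted p = 0.0543) and with a pseudocount of 0.1. Tlr5 read 0.539, 1.14 and 1.45 FPKM, above all LKS-SLAM libraries, with a difference of 0.83 ± 0.18 (limma, adjusted p = 0.000999) from LKS-SLAM controls. The culture is among the groups through which Tlr5 passed the filter, so this p-value is not independent of the filter. Tlr9 read 3.04, 2.50 and 2.12 FPKM, also above all LKS-SLAM libraries, by 1.29 ± 0.46 (adjusted p = 0.0244). That call was lost without LKS-SLAM control 2, culture library 1 or culture library 2 (1.15 to 1.29, adjusted p 0.0554 to 0.079).

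Tlr4 read 4.56, 7.40 and 8.04 FPKM and overlapped the LKS-SLAM controls, with an adjusted p of 0.990. Tlr6 read 3.16, 3.42 and 2.90 FPKM, above all 3 LKS-SLAM controls, by 0.70 ± 0.31 (limma, adjusted p = 0.0626, interval 0.07 to 1.34). It passed in 6 alternative fits, at 0.55 to 1.39. Tlr3 read 0.541, 0.399 and 0.317 FPKM, below all 3 controls, by -0.41 ± 0.16 (adjusted p = 0.0414). That call was lost without LKS-SLAM control 1 or 2 or culture library 2 or 3 and with a pseudocount of 0.1, and it turned to 0.11 with quantile normalisation. In all, 5 of 7 receptors were called against LKS-SLAM controls, 4 higher and 1 lower, where 48.8% of genes were called, 17.1% higher and 31.7% lower. Without LKS-SLAM control 2 or culture library 2 the count was 3. Against LKS-SLAM rEC cells 4 were called (45.0% of genes), and 1 in a fit of those 6 libraries alone. Against myeloid controls 6 were called, all lower, where 58.1% of genes were called, 37.8% higher and 20.3% lower. The groups of 6 receptors did not overlap against LKS-SLAM controls (58.6% of genes), of 4 against LKS-SLAM rEC cells (33.3%) and of 6 against myeloid controls (77.6%).

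**Figure D5:**
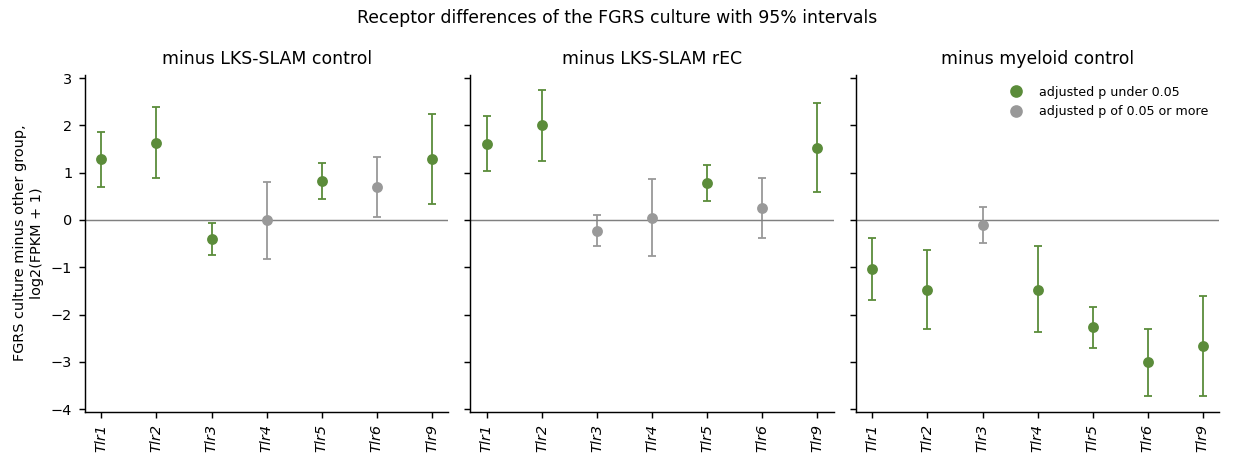
Dots are differences of the FGRS culture from LKS-SLAM controls, LKS-SLAM rEC cells and myeloid controls on the log2(FPKM + 1) scale, with 95% intervals. Tlr1, Tlr2, Tlr5 and Tlr9 lie above 0 against both LKS-SLAM groups and below 0 against myeloid controls.

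Markers of other cells moved with this comparison as well. The macrophage list, 6 of 6 genes at 1 FPKM or more, summed to 126 to 1226 FPKM in the culture and 23.5 to 25.0 FPKM in LKS-SLAM controls. C1qb, a complement subunit of macrophages, read 18.6, 367 and 145 FPKM in the culture. Csf1r read 51.2, 108 and 84.9 FPKM, against 1.87 to 6.32 FPKM in LKS-SLAM controls. The monocyte list to which it belongs had a lower sum in the culture, at 395 to 599 FPKM against 1232 to 1514 FPKM. By number of genes at 1 FPKM or more it was higher, at 6 of 6 in the culture and 4 to 5 of 6 in the controls. The neutrophil list varied widely between culture libraries, at 113 to 3730 FPKM, and enclosed the 1251 to 1679 FPKM of LKS-SLAM controls. The plasmacytoid dendritic list summed to 277 to 326 FPKM in the culture and 91.1 to 117 FPKM in LKS-SLAM controls. Its genes at 1 FPKM or more overlapped in number, at 3 to 4 of 5 in the culture and 1 to 4 of 5 in the controls. Klk1, from this list, was at 0 in culture libraries 2 and 3. The stem-cell list summed to 31.2 to 55.6 FPKM in the culture and 400.5 to 463 FPKM in the controls, and Kit, the stem cell factor receptor, read 11.6 to 32.9 FPKM against 116 to 133 FPKM. No macrophage or stem-cell marker was at 0 in the culture. The part of these cells in the receptor levels was not tested.

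Among the pathway lists, 24 of 76 genes were higher and 17 lower in the culture than in LKS-SLAM controls, or 53.9% called, where 48.8% of all genes were, 17.1% higher and 31.7% lower. With a library left out, the number of pathway genes called was 29 to 42. The share of all genes called in those fits is not given here. Folding and trafficking genes were higher in 8 of 10, with a median log2 difference of 1.58 where that of all genes was -0.194. Lgmn, Ctss and Ctsb, proteases of the endosome and lysosome, rose by 4.65 ± 0.52, 3.40 ± 0.46 and 2.68 ± 0.34. Co-receptors were higher in 5 of 9 (median 1.68), with Cd14 at 89.3 ± 52.9 FPKM in the culture and 5.34 ± 0.621 FPKM in the controls (SD, n = 3 each). Tlr13, a receptor for bacterial ribosomal RNA, rose by 3.06 ± 0.33, Tlr8 by 1.76 ± 0.28 and Tlr7 by 1.49 ± 0.42 (limma, adjusted p = 5.28e-07, 4.52e-05 and 0.00633). Myd88 rose by 1.13 ± 0.21. Of 10 inhibitors 7 were lower and none higher (median -1.70), with Zfp36, which destabilises cytokine mRNA, lower by -4.09 ± 0.69 and the deubiquitinase Tnfaip3 by -2.13 ± 0.39. Of 10 transcription factors 5 were lower and 2 higher, Fos by -4.58 ± 1.03 and Irf7 by -2.04 ± 0.40 among the lower ones and Irf5 by 1.55 ± 0.48 among the higher. The cytokine genes Tnf, Cxcl1 and Cxcl2 were higher and Il6 lower, by 1.33 ± 0.37, 2.21 ± 0.50, 2.05 ± 0.68 and -1.61 ± 0.51.

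Across the 11 group means, Tlr2 was most like Tlr5 (Pearson r = 0.935) and Tlr4 (0.918), and Tlr5 like Tlr6 (0.928), while Tlr1 and Tlr4 gave -0.548. These values describe 11 groups that share gates and depth. Among 10815 named genes with a group mean of 5 FPKM or more, the closest to Tlr1 were Tbc1d1 (0.986), Zc3h12d (0.985) and Tmem229b (0.978). Those closest to Tlr2 were Atp6v1b2 (0.992), Slc8b1 (0.991) and Taldo1 (0.991), and to Tlr4 Pdlim7 (0.994), Rfwd2 (0.986) and Chst12 (0.979). Tlr5 was followed most closely by Dhrs9 (0.998), Sirpb1b (0.998) and Pde7b (0.996). Tlr6 was followed by F12 (0.979), Irak4 (0.978) and Ttc7 (0.976), and Tlr9 by March1 (0.996), Slc15a4 (0.982) and Serp1 (0.974). Irak4 and Slc15a4 are also on the pathway lists, as a Myd88-linked kinase and an endosomal transporter.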

How the data were processed

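The authors deposited FPKM values per gene symbol for 30 libraries, made per the submitters' processing notes with Trimmomatic 0.36, TopHat2 2.1.0 and Cufflinks 2.2.1 among other tools. Per the labels' protocols, reads were 51 bp paired-end from non-stranded libraries, so antisense reads are not separated. FPKM carry no counts; how isoforms and shared reads were treated is not given in the sources used here.

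Differences were tested with limma 3.58.1 (R 4.3.3, trend, moderated variances) on log2(FPKM + 1) for the 14083 genes that reached 1 FPKM in 2 or more libraries, using 29 libraries in 11 groups and 18 residual degrees of freedom. This scale understates changes of low genes. P-values were two-sided, Benjamini-Hochberg adjusted over all genes and called under 0.05. The p-values measure only the spread between these libraries. The members, lists and tests were chosen with earlier results of these data known. Named pathway genes are up to 4 called genes per list and comparison with the largest differences. Genes of like pattern are the 3 with the highest Pearson r. Alternatives changed the pseudocount, filter, scaling, weights, libraries and replicate block. Figures used matplotlib 3.10.9. A B220+ library with conflicting labels entered no comparison.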

Additional observations from a re-analysis of the deposited data

Results flagged for a closer look

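A B220+ library titled with clone 47G1 but annotated as wild type was put in no group and entered no comparison. Its Tlr1, at 88.3 FPKM, lay above every B control (67.7 to 76.8 FPKM) and below the highest B rEC library (93.1 FPKM). Its Tlr2, at 5.63 FPKM, lay above every B control (3.21 to 4.95 FPKM) and every B rEC library (1.70 to 4.36 FPKM). Its Tlr6, at 5.24 FPKM, lay just above the highest B control (5.15 FPKM) and within the B rEC range. Its Tlr5 was 0.0148 FPKM, where all 6 grouped B libraries list 0.

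Tlr9 was not called by origin in either T-cell gate, but its libraries lay in opposite orders. Both CD4 T rEC libraries (0.352 and 0.436 FPKM) lay above both controls (0 and 0.231 FPKM), all at low levels. All 3 CD8 T rEC libraries lay below all 3 controls, which also held more B-cell marker RNA. Groups did not overlap for 37.3% of genes in CD4 T and 30.5% in CD8 T cells. The part of the B-cell RNA in these orders was not tested. The difference between those 2 cell types alone was not tested. The limma F test of whether the origin difference of Tlr9 varied over the cell types gave an adjusted p of 1, from an unadjusted value of 0.129.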

How the results depend on the processing

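The fits counted here cover the receptor differences called in the main fit and some uncalled ones, not every difference in the report. With a library left out, 302 fits kept direction and side of the threshold, 30 lost and 2 gained a call. For the other settings the numbers were 519, 11 and 13. Among the counted fits 2 changed sign, both with quantile normalisation. These were Tlr3 between the FGRS culture and LKS-SLAM controls (0.11) and Tlr1 by origin in LKS-SLAM cells (0.07). The cause was not tested.

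Counts of receptors called by origin moved as follows. In LKS-SLAM cells the count was 3 with array weights, 1 without LKS-SLAM rEC 2 and B rEC 1, and 0 to 1 with a library left out. In CD8 T cells it was 1 with a pseudocount of 0.1, 2 with array weights, 1 with its own libraries and 1 without those 2 libraries. The mean over cell types gave 1 with array weights, and the F test over cell types 3 with array weights and 1 without those 2 libraries. For the FGRS culture the count was 3 to 5 against LKS-SLAM controls with a library left out, and 1 against LKS-SLAM rEC cells with their own libraries.

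Alternatives for the pathway lists were added after seeing the data. By origin, LKS-SLAM cells gave 3 with a pseudocount of 0.1, 27 with array weights, 0 with their own libraries, 8 without the 2 libraries and 2 to 8 with a library left out. CD8 T cells gave 15, 31, 20 and 19 in the same order and 4 to 11. Myeloid cells gave 2 with array weights, 1 with their own libraries, 1 without the 2 libraries and 0 to 1, and CD4 T cells 1 with their own libraries.

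With the replicate block, the F test over native cell types called 6 receptors, the pairs 42 and the FGRS culture 5 against LKS-SLAM and 6 against myeloid controls. That fit also left out the rEC libraries other than the myeloid ones. In it Tlr6 was called between the FGRS culture and LKS-SLAM controls (0.70, limma, adjusted p = 0.00794). Without LKS-SLAM rEC 2 and B rEC 1, and with no block, Tlr6 was called too (0.70, adjusted p = 0.00486). The parts of the block and of the choice of libraries were not tested. Same-numbered libraries correlated between -0.089 and 0.075. With no values for libraries of unlike number beside them, these correlations cannot settle whether the numbers pair libraries. Depth is unknown, so low levels such as those of Tlr3 cannot be given a counting error.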

Other observations

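The B220+ library in no group read 0.754 FPKM for Tlr3, 5.30 FPKM for Tlr4 and 30.6 FPKM for Tlr9. Tlr4 and Tlr9 lay within the range of the B controls, and Tlr3 lay below it and within that of the B rEC libraries.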
